A study of Mus musculus with 4 samples.

Results

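Collagen and laminin chains were examined in mouse embryonic fibroblasts on Affymetrix U74Av2 arrays. Members were the genes with the symbol Col, a number, the letter a and a number, or Lama, Lamb or Lamc and a number, taken from probe sets listed for a single gene. The rule found 40 of the 8251 genes on the array, 31 collagen and 9 laminin chains, covered by 58 probe sets. Of these genes, 29 (22 collagen and 7 laminin) exceeded the signal floor of 92.5 on at least 1 array, and 24 did so on all 4. The signal is the deposited probe set intensity on a linear scale, and the floor is the 40th percentile of all non-control signals.

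There were 4 groups with 1 array each. They were Xiap knockout fibroblasts given 20 ng/ml TNF for 4 hours, unstimulated Xiap knockout fibroblasts, wild-type fibroblasts given the same TNF treatment, and unstimulated wild-type fibroblasts. Xiap encodes a caspase inhibitor, and TNF is an inflammatory cytokine. All cells were grown in DMEM with serum and treated at confluence. The strain, the deleted part of Xiap, the age of the embryos and the number of embryos behind each culture are unknown here. With no replicate arrays, a fold change between 2 arrays has no replicate check.

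Collagens are proteins of the extracellular matrix built from 3 alpha chains wound into a triple helix, and fibroblasts are their main source in connective tissue. Fibrillar collagens assemble into tension-bearing fibrils, type IV collagen forms the meshwork of basement membranes, and type VI forms beaded filaments near cells. Laminins are basement membrane glycoproteins made of an alpha, a beta and a gamma chain, and cells bind them through integrins and dystroglycan.

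Promoter windows are shown for the members whose levels differed most between genotypes or moved with a partner chain, and for Col1a2 as a fibrillar chain. Each runs from 250 bases before to 50 bases after the annotated start, 5′ to 3′ on the gene's strand, from RefSeq on GRCm38.p6. A window was found for 27 of the 40 genes. Capitals mark matches to promoter motifs, searched on both strands. The core element bound by the TATA-binding protein was searched as TATAAA. The element bound by NF-Y was searched as CCAAT, and the GC box bound by Sp1 as GGGCGG. The site of the stress-responsive factor AP-1 was searched as TGANTCA, and that of NF-kB, which TNF activates, by its consensus. The Col4a1 window is chr8:11312777-11313076 on the minus strand, and that of Col4a2 is chr8:11312555-11312854 on the plus strand. The 2 genes run head to head, their annotated starts lie 21 bases apart, and the windows share 78 bases. In Col4a2 an NF-kB match overlaps the NF-Y element.
Col4a1: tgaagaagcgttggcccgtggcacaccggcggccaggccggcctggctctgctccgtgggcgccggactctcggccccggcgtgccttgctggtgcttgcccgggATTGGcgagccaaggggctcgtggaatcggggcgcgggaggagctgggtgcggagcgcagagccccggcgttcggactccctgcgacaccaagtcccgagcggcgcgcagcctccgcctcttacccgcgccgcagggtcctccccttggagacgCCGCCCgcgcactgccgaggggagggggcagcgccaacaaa
Col4a2: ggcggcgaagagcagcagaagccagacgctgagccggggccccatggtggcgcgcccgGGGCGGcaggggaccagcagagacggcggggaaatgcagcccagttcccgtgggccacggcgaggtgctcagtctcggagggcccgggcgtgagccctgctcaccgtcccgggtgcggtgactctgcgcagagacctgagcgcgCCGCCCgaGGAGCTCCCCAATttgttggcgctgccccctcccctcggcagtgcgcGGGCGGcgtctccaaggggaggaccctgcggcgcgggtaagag
The windows of the chains with the largest genotype differences are chr16:57754688-57754987 on the minus strand for Col8a1 and chrX:141475169-141475468 on the plus strand for Col4a5.
Col8a1: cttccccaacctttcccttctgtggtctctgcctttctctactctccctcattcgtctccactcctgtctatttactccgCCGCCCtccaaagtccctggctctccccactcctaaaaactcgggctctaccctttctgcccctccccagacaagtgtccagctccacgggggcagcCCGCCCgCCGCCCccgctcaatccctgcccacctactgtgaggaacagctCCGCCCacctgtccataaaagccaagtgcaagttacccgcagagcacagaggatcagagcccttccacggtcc
Col4a5: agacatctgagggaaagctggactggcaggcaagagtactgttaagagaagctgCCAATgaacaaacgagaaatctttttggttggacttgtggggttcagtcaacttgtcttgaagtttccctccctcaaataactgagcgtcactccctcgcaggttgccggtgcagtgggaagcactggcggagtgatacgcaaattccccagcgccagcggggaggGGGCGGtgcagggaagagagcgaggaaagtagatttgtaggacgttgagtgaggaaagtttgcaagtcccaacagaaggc
Col6a1 (chr10:76725995-76726294, minus strand) held the only AP-1 match among the member windows, and Col1a2 lies at chr6:4505368-4505667 on the plus strand.
Col6a1: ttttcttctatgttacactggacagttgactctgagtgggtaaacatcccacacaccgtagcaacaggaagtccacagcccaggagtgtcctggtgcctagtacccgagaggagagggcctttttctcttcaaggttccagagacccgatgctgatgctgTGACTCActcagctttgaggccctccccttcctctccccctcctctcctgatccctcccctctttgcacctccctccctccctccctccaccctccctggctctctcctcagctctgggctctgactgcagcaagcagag
Col1a2: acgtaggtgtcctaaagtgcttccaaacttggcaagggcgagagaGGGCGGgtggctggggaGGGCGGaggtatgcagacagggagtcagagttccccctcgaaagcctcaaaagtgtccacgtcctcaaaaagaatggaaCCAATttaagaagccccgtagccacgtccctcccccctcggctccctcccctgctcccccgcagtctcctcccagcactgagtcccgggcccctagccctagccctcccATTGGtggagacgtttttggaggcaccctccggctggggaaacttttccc
A GC box stood in 16 of 31 member windows (51.6%), against 35.7% of all 32851 windows. NF-Y elements stood in 32.3% of member windows, against 37.4% of all, and TATA elements in 16.1%, against 13.6%. NF-kB matches stood in 22.6% of member windows, against 8.46% of all, and AP-1 in 3.23%, against 7.81%. Matches of different motifs can overlap, and several genes have more than 1 window. These shares describe letters in the windows and were not tested.

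All 4 arrays had a trimmed mean signal of 500.3, and medians lay between 151 and 183. The brightest Xiap probe set had signals of 120 with TNF and 180 without it in knockout cells, against 126 and 239 in wild-type cells, so it does not check the genotype labels. Xist, transcribed from the inactive X chromosome, had signals of 1601 and 1232 in knockout cells, against 5.4 and 34.3 in wild-type cells. The Y-linked Eif2s3y had 9.1 and 2.8, against 308 and 489. The cultures thus appear to differ in sex, and an effect of genotype cannot be told apart from one of sex, including for the X-linked Col4a5. Of 8 fibroblast markers, all exceeded the floor on some array, although Vim had only 42.1 to 94.5. Thy1, Fap, Ddr2 and Pdgfrb fell and S100a4 rose in knockout cells in the additive fit described below, and Pdgfra rose with TNF. The summed signal of the 8 markers was 9979 with TNF and 9362 without it in knockout cells, against 10153 and 9432 in wild-type cells. S100a4 supplied 4144 and 4106 of these sums in knockout cells, against 1226 and 1351, so the similar sums hide opposite shifts of single markers. Of 7 epithelial markers only Cdh1 exceeded the floor, of 6 endothelial markers Flt1, Kdr and Pecam1 did, and of 6 macrophage markers Cd14, Csf1r, Cd68 and Lyz2 did. The summed macrophage marker signal was 2946 and 2827 in knockout cells with and without TNF, against 1812 and 2454 in wild-type cells. The epithelial sum was 669 and 744 in knockout cells, against 394 and 591. The endothelial sum was 418 and 231, against 1336 and 519. With TNF most of it came from Flt1, which had 256 and 30.3, against 1172 and 155. Flt1 itself had a TNF effect of 2.19 in the additive fit. The chondrocyte sum was 221 and 242, against 81.5 and 122, with only Acan of 5 markers above the floor. The osteoblast sum was 176 and 245, against 176 and 261, with only Alpl of 3 above the floor. The muscle sum was 3610 and 4106, against 2381 and 2574, mostly from the actin gene Actc1. The Actc1 probe set is of a kind that can detect related transcripts. The part of these differences between the cultures in the results below was not tested.

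**Figure D1:**
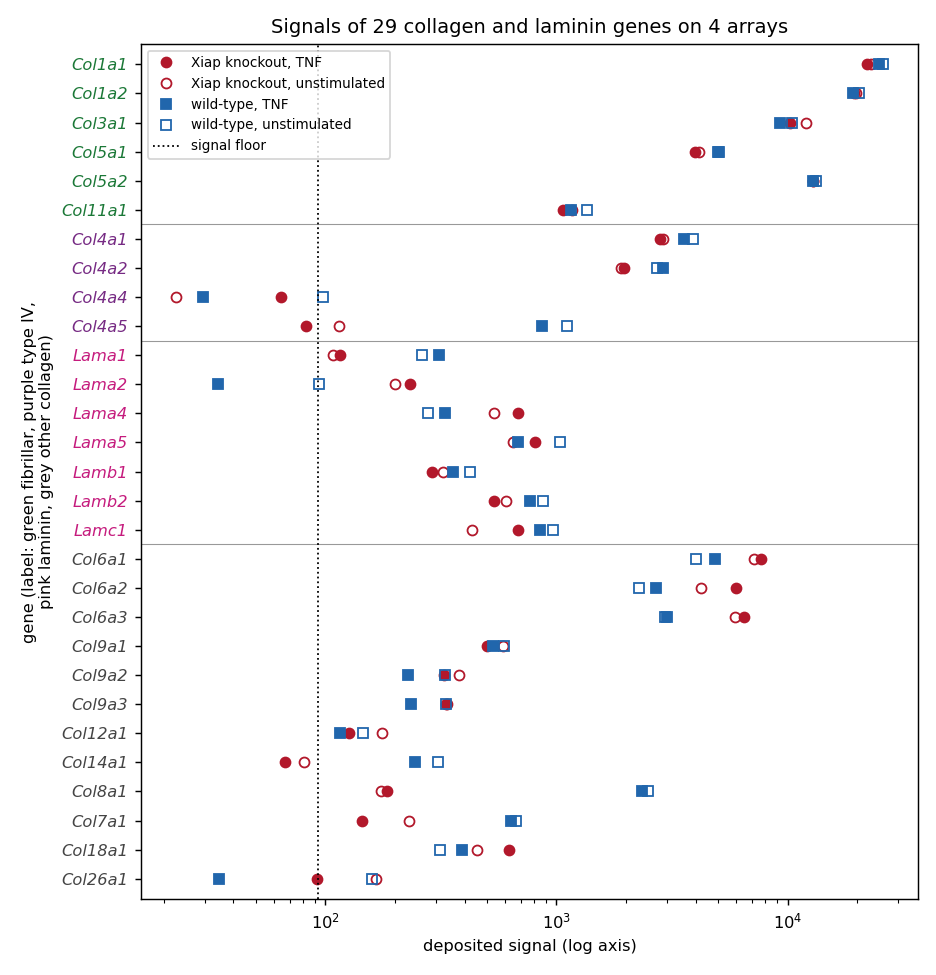
Deposited signals (log axis) of the 29 collagen and laminin genes above the floor, with Xiap knockout cells as red circles and wild-type cells as blue squares, filled with TNF and open without it. The 4 points of each fibrillar chain lie close together, whereas Col8a1, Col4a5, Col7a1 and Col14a1 have knockout points well to the left of the wild-type points.

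Each fibrillar chain had similar signals on the 4 arrays. Col1a1, which with Col1a2 forms type I collagen, had signals of 21983 with TNF and 22927 without it in knockout cells, against 24922 and 25901 in wild-type cells. Col1a2 had 19302 and 19863 in knockout cells, against 19119 and 20439 in wild-type cells. In these probe sets Col1a1 was 1.13-fold lower in knockout cells in each state, and Col1a2 differed by 1.01-fold with TNF and 1.03-fold without it. The other Col1a1 probe set did not show the difference, with 5177 and 4883 in knockout cells, against 5099 and 4935. The other Col1a2 probe set had 719 and 837, against 781 and 1045.

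Col3a1, the chain of type III collagen, had 10215 and 11968 in knockout cells, against 9305 and 10444 in wild-type cells. Col5a2, of the type V collagen that helps to set fibril diameter, had 12850 and 12851, against 12819 and 13253. Col11a1, of type XI collagen, which nucleates thin fibrils mainly in cartilage, had 1068 and 1162 in knockout cells, against 1160 and 1354. None of the 3 differed by 2-fold between any arrays compared. Col2a1, the cartilage chain, and Col11a2 were below the floor on every array.

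The genotype effect was taken from an additive limma fit over all 4 arrays, which estimates genotype and TNF effects together across 6174 genes with Benjamini-Hochberg adjustment. For Col1a1 it was -0.18 on the log2 scale (95% interval -0.38 to 0.02), for Col1a2 -0.01 (-0.22 to 0.19), and for Col5a2 -0.02 (-0.22 to 0.18). Col5a1, the partner of Col5a2, had signals of 3959 and 4130 in knockout cells, against 5034 and 4980 in wild-type cells. It fell by 0.31 in the knockout (SE 0.09, adjusted p = 0.0485), lower in both states. Its other probe set gave an effect of 0.21 in the opposite direction (adjusted p = 0.16), so the 2 probe sets of Col5a1 disagree, and the mean of both gave -0.05 (adjusted p = 0.746). Col3a1 had an effect of 0.17 (adjusted p = 0.217) in the probe set used, and its other probe sets gave 0.44 and 0.68, with adjusted p of 0.0332 and 0.0161 when each probe set was tested by itself.

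All 3 chains of type VI collagen were higher in knockout cells. Col6a1 had signals of 7700 with TNF and 7139 without it in knockout cells, against 4876 and 4034 in wild-type cells. Col6a2, its neighbour on chromosome 10, had 6004 and 4238, against 2693 and 2279. Col6a3, the long chain, encoded on chromosome 1, had 6476 and 5905, against 3004 and 2950. The difference had this direction for each chain both with and without TNF.

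In the additive limma fit Col6a1 rose by 0.74 (SE 0.09, adjusted p = 0.00249), Col6a2 by 1.03 (SE 0.10, adjusted p = 0.00125) and Col6a3 by 1.05 (SE 0.09, adjusted p = 0.000627). Their 95% intervals were 0.53 to 0.96, 0.78 to 1.27 and 0.84 to 1.27. The second probe set of Col6a1 gave 1.20. Without TNF the fold differences were 1.77, 1.86 and 2.0, and with TNF 1.58, 2.23 and 2.16.

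Of the type IV collagen chains, Col4a1, Col4a2 and Col4a5 were lower in knockout cells, by very different amounts. Col4a1, which with Col4a2 forms the common type IV trimer, had signals of 2805 and 2890 with and without TNF in knockout cells, against 3553 and 3879 in wild-type cells. Col4a2 had 1965 and 1895, against 2902 and 2731. The head-to-head pair shown above shifted by similar amounts, Col4a1 falling by 0.38 (SE 0.09, adjusted p = 0.0279) and Col4a2 by 0.54 (SE 0.09, adjusted p = 0.00901). Without an intensity trend in the fit neither passed (adjusted p = 0.146 for Col4a1 and 0.0709 for Col4a2), and with equal medians Col4a1 had an adjusted p of 0.124.

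Col4a5, an X-linked chain found in specialised basement membranes such as that of the kidney glomerulus, had signals of 82.8 and 115 in knockout cells, against 863 and 1111 in wild-type cells. It was 9.69-fold lower without TNF and at least 9.33-fold lower with TNF, where the knockout signal was below the floor. The fit gave a fall of 3.25 (SE 0.21, adjusted p = 0.000162), which depends on the floor. Col4a4, a partner of Col4a5 in that trimer, exceeded the floor only in unstimulated wild-type cells (97.7), and Col4a3, the remaining partner, was at most 7.1 on any array.

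Laminin alpha chains went in both directions between genotypes. Lama4, an alpha chain of vessel and mesenchymal laminins, had signals of 683 with TNF and 539 without it in knockout cells, against 330 and 278 in wild-type cells. Lama2, the alpha chain of muscle and nerve laminins, had 233 and 201, against 34.3 and 93.7. Lama4 rose by 1.00 (SE 0.19, adjusted p = 0.0115), but its second probe set was below the floor on every array, and the mean of both gave 0.50 (adjusted p = 0.103). Lama2 was 2.14-fold higher without TNF and at least 2.52-fold higher with TNF, and rose by 1.22 in the fit (adjusted p = 0.00737). Its wild-type signals lay below the floor of 92.5 with TNF and only just above it without TNF. With the floor at the 60th percentile Lama2 was not among the genes called.

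Lama1, the alpha chain of early embryonic laminin, had 116 and 108 in knockout cells, against 310 and 263 in wild-type cells. It was 2.68-fold lower with TNF and 2.44-fold lower without it, and fell by 1.36 in the fit (SE 0.21, adjusted p = 0.00589). Its knockout signals stood close to the floor, and with the floor at the 60th percentile the effect was -0.05 (adjusted p = 0.79). Lama3, the alpha chain of epithelial laminin, was below the floor on every array, as was its beta chain partner Lamb3.

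The beta and gamma chains were lower in the knockout or showed no difference past the test. Lamb2 had signals of 537 and 607 with and without TNF in knockout cells, against 767 and 870 in wild-type cells, and fell by 0.52 (SE 0.15, adjusted p = 0.0484, and 0.0792 without an intensity trend). Lamb1 had 290 and 322, against 356 and 423, with an effect of -0.34 (95% interval -0.83 to 0.14). Lamc1, the gamma chain shared by most laminins, had 683 and 433 in knockout cells, against 848 and 964. It was 2.23-fold lower without TNF and 1.24-fold lower with TNF, and its fitted effect of -0.73 missed the threshold (adjusted p = 0.056). The second probe set of Lamc1 was below the floor on every array, and the set used is of a kind that can detect related transcripts. With equal medians Lamc1 passed (effect -0.82, adjusted p = 0.00171), whereas the mean of both probe sets gave -0.37 (adjusted p = 0.254) and a log2 change of -0.58 without TNF, short of 2-fold.

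The largest genotype difference of any member was that of Col8a1, a short-chain collagen that forms networks in vessel walls and the cornea. It had signals of 184 with TNF and 174 without it in knockout cells, against 2350 and 2484 in wild-type cells. Col8a1 was 12.8-fold lower with TNF and 14.3-fold lower without it, and the limma fit gave a fall of 3.76 (SE 0.15, adjusted p = 2.9e-05). The TNF state made almost no difference within either genotype.

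Col7a1, the chain of the anchoring fibrils that tie epidermis to dermis, had 144 and 230 in knockout cells, against 634 and 665 in wild-type cells. It fell by 1.84 in the fit (SE 0.23, adjusted p = 0.0029). Col14a1, a collagen that decorates fibrils without forming them, was below the floor in knockout cells at 66.8 and 80.5, against 244 and 307 in wild-type cells. That made it at least 2.64-fold lower with TNF and at least 3.32-fold lower without it (adjusted p = 0.00358). With the floor at the 60th percentile its effect was -0.04 (adjusted p = 0.818). Col7a1, above the floor on all 4 arrays, was 4.42-fold lower with TNF and 2.89-fold lower without it.

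Col18a1, the source of the fragment endostatin, had 625 and 455 in knockout cells, against 392 and 312 in wild-type cells. Its effect of 0.61 (95% interval 0.16 to 1.05) missed the threshold at an adjusted p of 0.061, which was 0.0241 with the floor at the 60th percentile. The mean of its 5 probe sets, 4 of them at most at 137 and below the floor on at least 3 arrays, gave 0.20 (adjusted p = 0.401). The fibril-associated type IX chains had intervals that spanned 0. These were -0.44 to 0.35 for Col9a1, -0.16 to 0.88 for Col9a2 and -0.29 to 0.82 for Col9a3. Col12a1, of the same structural group, had 127 and 176 in knockout cells, against 116 and 146, and its 2 probe sets differed in the sign of the genotype effect (0.20 and -0.15). Col10a1, Col13a1, Col15a1, Col17a1, Col19a1 and Col22a1 were below the floor on every array.

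**Figure D2:**
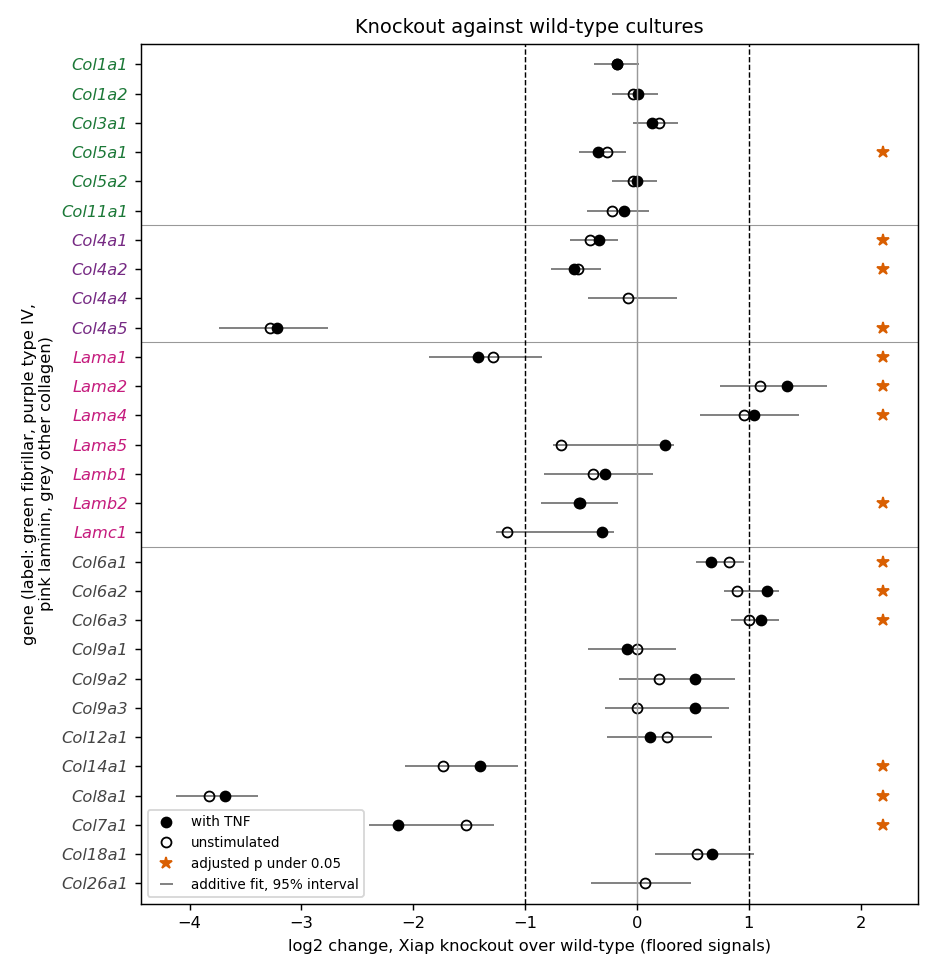
Log2 change of knockout over wild-type for each gene with TNF (filled) and unstimulated (open), with the 95% interval of the additive limma effect (grey line) and a star where the adjusted p was under 0.05. Dashed lines mark 2-fold. The 3 type VI chains lie to the right, and Col4a1, Col4a2 and Col4a5 to the left. Col8a1 lies near -3.76 and Col4a5 near -3.25. Values and intervals of genes with an array below the floor depend on it.

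Counted over the 29 measured members, 5 rose (17.2%) and 9 fell (31.0%) in the knockout, against 11.4% and 10.4% of all 6174 genes. Those that rose were Col6a1, Col6a2, Col6a3, Lama2 and Lama4, and those that fell were Col8a1, Col4a5, Col7a1, Col14a1, Lama1, Col4a2, Lamb2, Col4a1 and Col5a1. By fold alone, 2 of 29 members were at least 2-fold higher without TNF (background 4.55%) and 6 lower (background 4.7%). With TNF, 4 of 27 were higher (background 5.62%) and 5 lower (background 5.01%). When arrays were set to equal medians, which lowered the median of all genes by 0.19 in that comparison, 1 was higher and 5 lower, and with the floor at the 20th percentile 9 were higher and 5 lower. Without TNF the 2-fold count was 5 with the floor at the 60th percentile. Col6a3 at 2.0-fold lay just inside the 2-fold threshold without TNF, and Lama4 at 1.94-fold just outside.

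The comparisons share arrays, so their counts are not independent. No group holds a replicate array. The error behind these p-values is the difference of TNF response between genotypes, moderated across all genes. Spread between cultures is not measured, since nothing says that arrays of a genotype came from separate cultures. A genotype effect cannot be told apart from any other difference between the knockout and wild-type cultures, and fewer cells of a type cannot be told apart from less RNA per cell.

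By structural class and with the brightest probe set of each gene, the fibrillar chains varied least between genotypes. Other probe sets of Col3a1 gave larger effects, 0.44 and 0.68. Most fibrillar chains had signals far above those of the laminin chains, and effect sizes were not adjusted for signal. The median additive effect was -0.10 over 6 fibrillar chains, -0.46 over 4 type IV chains, -0.34 over 7 laminin chains and 0.23 over 12 other collagens, against 0.02 over all measured genes. The median size of the effect regardless of sign was 0.17 for fibrillar chains, 0.54 for basement membrane chains (type IV and laminin), 0.67 for other collagens and 0.27 for all genes. Of the fibrillar chains 1 of 6 passed the test, and of the basement membrane chains 7 of 11, with 2 higher and 5 lower. Of all 6174 genes 706 rose and 645 fell, a share near that of the fibrillar chains. The fibrillar median exceeded the basement membrane median by 0.41 on the log2 scale without TNF and by 0.27 with TNF. These differences between classes were not tested.

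**Figure D3:**
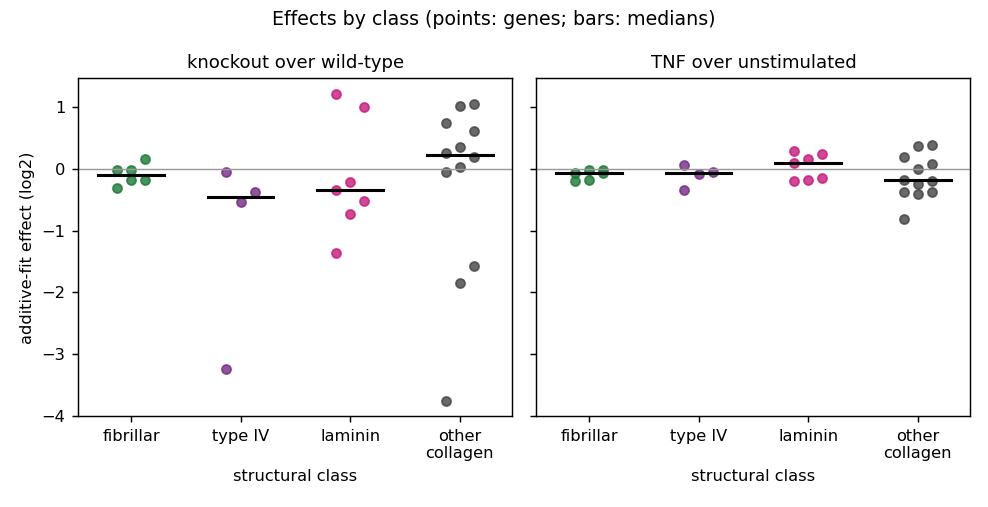
Additive limma effects (log2) of the measured genes by structural class, knockout over wild-type on the left and TNF over unstimulated on the right, each point a gene and each bar the class median. Genotype effects spread from -3.76 to 1.22, with the fibrillar chains between -0.31 and 0.17, whereas TNF effects lie between -0.81 and 0.39.

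TNF moved no member by 2-fold in either genotype when dim signals were set to the floor. Of 27 members measured in knockout cells 0 were at least 2-fold higher and 0 lower, against 1.48% and 0.409% of all genes. In wild-type cells the count was 0 of 29 in each direction, against 2.64% and 2.61% of all genes. With the floor at the 20th percentile, 3 dim members passed 2-fold in knockout and 4 in wild-type cells. Without a floor 0 passed in knockout cells and 3 in wild-type cells, Col26a1, Col4a4 and Lama2, all lower with TNF. In the additive limma fit 0 members rose and 0 fell at an adjusted p below 0.05, against 1.28% and 0.162% of all genes. At an unadjusted p below 0.05 there were 2 of 29 members (6.9%), Col6a2 and Col26a1, against 14.0% of all genes.

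For chains with bright probe sets the interval around the TNF effect was narrow. Its width rests mostly on variance shared across genes (1 residual and 5.62 prior degrees of freedom) and holds no spread between cultures. The interval ran from -0.26 to 0.14 for Col1a1 and from -0.27 to 0.13 for Col1a2, around effects of -0.06 and -0.07. A second, dimmer probe set of Col1a2 gave -0.32 (adjusted p = 0.378), outside that interval. Col3a1 had an effect of -0.20 (-0.40 to 0.00), and its other probe sets gave -0.34 and -0.54. Over the 6 fibrillar chains the effects lay between -0.20 and -0.02. Col4a1 and Col4a2 had effects of -0.08 (-0.30 to 0.13) and 0.07 (-0.16 to 0.30).

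The largest TNF difference belonged to Col26a1, a collagen first described in reproductive tissue. It had signals of 91.8 with TNF and 166 without it in knockout cells, and of 34.8 with TNF and 159 without it in wild-type cells. The gene was lower with TNF by at least 1.80-fold in knockout and at least 1.72-fold in wild-type cells, with an adjusted p of 0.118 in the fit and 0.0112 with equal medians, where the effect was smaller (-0.74) and the variance model differed. Both TNF signals lay below the floor, the knockout one only just. Col6a2 was 1.42-fold higher with TNF in knockout and 1.18-fold higher in wild-type cells, with a fitted effect of 0.37 (95% interval 0.13 to 0.62, adjusted p = 0.176).

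**Figure D4:**
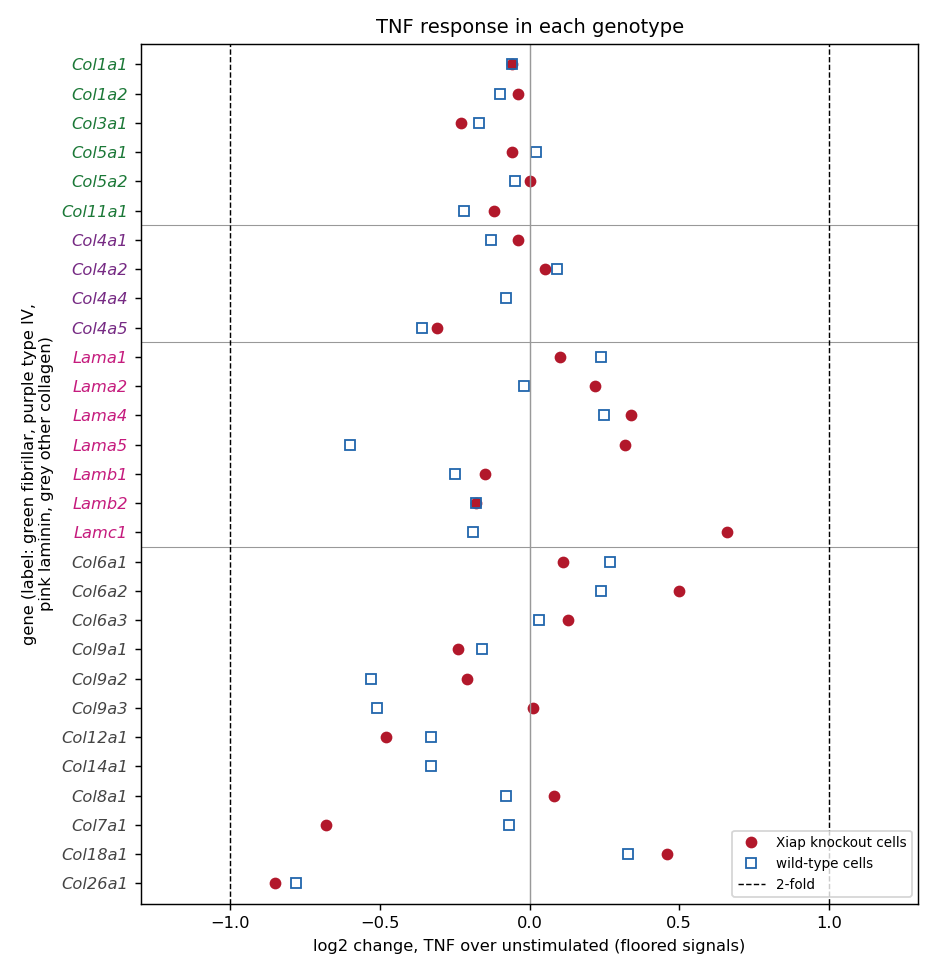
Log2 change with TNF for each gene in Xiap knockout (red circles) and wild-type cells (blue squares), dashed lines at 2-fold. Every point lies inside the lines, with dim signals set to the floor. Lama5 and Lamc1 show the widest gap between genotypes, and Col26a1 is lowest in both.

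With dim signals set to the floor, the TNF response differed between genotypes by less than 2-fold for all 29 members, where 2.53% of all genes had a response at least 2-fold larger and 1.13% at least 2-fold smaller in the knockout. For 5 of the 29 an array lay at the floor, which limits the difference. Without a floor it was 3.15 for Col4a4, 1.64 for Lama2 and 1.31 for Col26a1 on the log2 scale. Among members above the floor on all 4 arrays the widest gaps were those of laminin chains. Lama5, a broadly expressed alpha chain, had signals of 809 with TNF and 646 without it in knockout cells, and of 680 with TNF and 1034 without it in wild-type cells. The log2 change was 0.32 in knockout and -0.60 in wild-type cells. The second probe set of Lama5 gave -0.32 and -0.98, so the gap was of the same direction and the knockout sign was not. Lamc1 changed by 0.66 in knockout and by -0.19 in wild-type cells, and Col7a1 by -0.68 and -0.07. With 1 array per group the difference of response has no test.

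The median log2 change with TNF was -0.06 in knockout and -0.08 in wild-type cells for fibrillar chains. For laminin chains it was 0.22 in knockout and -0.18 in wild-type cells, and for type IV chains -0.04 and -0.10. All measured genes had medians of -0.04 and -0.10. In knockout cells 15 of 27 members lay below 0, and in wild-type cells 21 of 29 did. Of all genes 3440 of 5868 lay below 0 in knockout cells and 3588 of 5911 in wild-type cells.

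Genes that modify, fold and cross-link collagen changed with genotype in part, with a median effect of -0.01. Of 18 measured genes of this list 4 rose and 3 fell in the knockout, against 11.4% and 10.4% of all genes, and 0 changed with TNF in the limma fit, against 1.28% higher and 0.162% lower. P3h3 and P3h4, which act with lysyl hydroxylase in the endoplasmic reticulum, rose by 1.06 and 1.08 (adjusted p = 0.00349 and 0.00209). The prolyl hydroxylase gene P4ha1 rose by 0.87 and the proline isomerase gene Ppib by 0.54. Colgalt1, which adds galactose to hydroxylysine, fell by 1.14 (adjusted p = 0.000821), and Pcolce, which enhances procollagen processing, fell by 0.71. The procollagen proteinase gene Bmp1 fell by 0.53 (adjusted p = 0.0443). The collagen chaperone gene Serpinh1 and the cross-linking enzyme gene Lox had effects of -0.19 and -0.02, with adjusted p of 0.172 and 0.914.

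Of 11 measured basement membrane partners 5 fell and 1 rose in the knockout, against 10.4% and 11.4% of all genes, and 0 changed with TNF, with a median genotype effect of -0.39 against 0.02 over all genes. Tinagl1 had signals of 199 with TNF and 230 without it in knockout cells, against 1026 and 1180 in wild-type cells, 5.16-fold and 5.14-fold lower. Agrn, the proteoglycan agrin, fell by 1.39, and Nid1, which links laminin to type IV collagen, fell by 1.20. Smoc2 fell by 1.12 and Fbln2 by 0.39. Npnt, an integrin ligand of basement membranes, rose by 1.01 (adjusted p = 0.0149), with both wild-type signals below the floor. Hspg2, which encodes perlecan, had 1943 and 1040 in knockout cells, against 1182 and 1236, a log2 change with TNF of 0.90 in knockout and -0.06 in wild-type cells.

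Of 10 measured matrix receptors 2 fell and 0 rose in the knockout, against 10.4% and 11.4% of all genes. They were the collagen-binding receptor kinases Ddr1 by 0.75 (adjusted p = 0.0138) and Ddr2 by 0.92 (adjusted p = 0.00181). Itgb1, the beta chain common to most collagen and laminin integrins, had an effect of -0.10 (adjusted p = 0.455). The hyaluronan receptor gene Cd44 was the only receptor that rose with TNF, by 1.35 (SE 0.21, adjusted p = 0.0397), with signals of 519 with TNF and 252 without it in knockout cells, against 1024 with TNF and 325 without it in wild-type cells. Of 10 measured fibril and elastic fibre associates 4 fell in the knockout and 0 rose, against 10.4% and 11.4% of all genes. Mfap2 fell by 2.44, Thbs2 by 2.04, Mfap5 by 1.63 and Eln by 0.66, while Fn1 and Postn each had an effect of 0.05 (adjusted p = 0.832 and 0.736). Thbs2 was the only associate past 2-fold with TNF. It was 2.06-fold lower in knockout cells (813 with TNF and 1672 without it) and 1.09-fold lower in wild-type cells.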

How the data were processed

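For each combination of Xiap genotype and TNF treatment, RNA from mouse fibroblasts was hybridised to 1 array, 4 arrays in all. Each title names the genotype and the treatment. The deposited tables hold 1 linear intensity per probe set, computed by MAS5 according to the processing notes of the submitters. Which MAS5 version and settings were used, how probe sets were called present, and which genome build applied is not given here. The 12488 probe sets include 66 controls, which were left out of percentiles and counts. Gene symbols came from the annotation of the array platform, and all 40 member genes were matched to RefSeq by Entrez identifier.

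Signals were scaled to a common trimmed mean (2% left out at each end, factor 1.000 as the arrays already shared it), and values under a floor of 92.5, the 40th percentile over all arrays without controls, were set to it before taking log2. The log2 values were computed here from the deposited signals. The brightest probe set on average stands for each gene, which mattered for 14 members with more than 1 probe set. Genes entered a comparison if an array in it exceeded the floor. A fold with an array at the floor is a bound, written "at least", and changes of dim genes are understated. Levels of different probe sets are not comparable.

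Genes past 2-fold were counted without a test. The additive fit (limma 3.58.1 in R 4.3.3, genotype and TNF as terms, eBayes with an intensity trend, 2-sided, threshold 0.05) has 1 residual degree of freedom per gene and 5.62 prior ones. It counts a true difference of response as error, was fitted across 6174 genes and was tested on simulated data, where false calls exceeded the nominal rate in most runs, so calls near the threshold are less certain. Intervals cover 95% under that fit. The members, classes, lists and tests were chosen with earlier results of these data known. Named were all members above the floor, and of 4 lists of matrix partners the genes past 2-fold, up to 6 per list and comparison. The other partners named were chosen after their values were seen. Few arrays limit the precision. Alternatives were other scalings, floors, filters, probe set rules and variance models. Protein sequences were not analysed here, so the planned comparison of repeat structure was not made.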

Additional observations from a re-analysis of the deposited data

Results flagged for a closer look

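Members above the floor on all 4 arrays were listed when TNF moved them one way in knockout and the other way in wild-type cells and the log2 responses differed by at least 0.5. Each group holds 1 array, so the difference was not tested. Lama5 had a log2 response in the knockout that exceeded the wild-type response by 0.93. Its second probe set fell with TNF in both genotypes, by -0.32 in knockout and -0.98 in wild-type cells. For Lamc1 the excess was 0.84. The third was Col9a3 at 0.52, with signals of 336 with TNF and 333 without it in knockout cells, against 234 with TNF and 332 without it in wild-type cells.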

How the results depend on the processing

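Over 9 alternative settings, 79 of 88 alternative values of the counts and class differences kept within their limits and 9 moved. Of 306 values of single genes, 256 kept direction and side of the threshold, 24 gained the threshold, 24 lost it and 2 reversed. Of the 9, 8 came with another floor or filter on dim signals. With the floor at the 20th percentile, members past 2-fold numbered 3 with TNF in knockout cells and 4 in wild-type cells, each against 0. They numbered 14 (9 higher, 5 lower) for knockout over wild-type with TNF, against 9, and 5 for the difference of response, against 0. Without a floor there were 3 with TNF in wild-type cells and 3 for the difference of response. With the floor at the 60th percentile, or only genes above the floor on all 4 arrays, 5 differed between unstimulated genotypes, against 8. At the higher floor Col14a1 was still measured but its change shrank to -0.08. With equal medians the fit called 1 TNF change, Col26a1 (adjusted p = 0.0112), against 0. Its effect was smaller there, and the fit took 1 common variance trend with no gene-wise spread around it. That scaling moved the median of all genes by 0.27 for TNF in wild-type cells and by -0.21 for the difference of response. The difference of response of Col26a1 reversed, at 1.33 with the lower floor and 1.31 without one, against -0.07, because its TNF signals lie below the floor. Genotype calls among members ranged between 10 without an intensity trend and 16, against 14. Col6a1, Col6a2, Col6a3, Col8a1 and Col7a1 were called under all 9 settings. No paired analysis was possible because each group holds 1 array and the numbers shared by groups mark no pairs. Dim signals limit what can be said of the 11 members below the floor, and no replicate could be left out.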
